A study of Drosophila melanogaster with 63 samples.

Results

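These are 985 chromatin sites of Drosophila Kc167 cells at which 4 proteins were called together: NURF301, CP190, Su(Hw) and Mod(mdg4)67.2. They made up 13.4% of the 7360 reference sites of NURF301, the reference sites being the places where mock cells had a peak. For each antibody, overlapping peaks (by 1 bp or more) of the mock and mock2 lists were joined, and a joined site was kept when at least 4 of the 6 lists held it. For Mod(mdg4)67.2, which has 3 mock lists, at least 2 were needed. A NURF301 site became a member when it overlapped a reference site of each of the other 3 proteins. The mock peak calls therefore chose the members, and how the members look in mock cells is a description. The rule used no knockdown or GFP list, but this group was chosen with earlier results of these data known.

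NURF301 is the large subunit of NURF, a complex that uses ATP to slide nucleosomes with the ISWI motor. Su(Hw) is a zinc finger protein that binds DNA at the gypsy insulator, and CP190 and Mod(mdg4)67.2 are partners that join it through protein contacts. Together they form the gypsy insulator complex, which can block an enhancer from reaching a promoter placed on its other side. CP190 also sits at many promoters with other insulator proteins and without Su(Hw).

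Kc167 is a female cell line from embryos. In the NURF301 knockdown, 5 ug of dsRNA (double-stranded RNA for RNA interference) against Nurf301 was transfected 4 days earlier, and 3 libraries each were made for NURF301, CP190 and Su(Hw). CP190 knockdown cells received dsRNA against Cp190, with 2 libraries each for NURF301 and CP190. Su(Hw) knockdown cells received dsRNA against su(Hw), with 3 libraries each for all 3 antibodies. The amount of dsRNA and the time were the same in all 3 knockdowns. A line called Kc-MOD-GFP gave 3 libraries with an antibody against GFP. The mock cells of the mock series gave 3 libraries for each of the 4 proteins. Those of the mock2 series gave 3 for NURF301, CP190 and Su(Hw). What sets mock and mock2 apart is given only by the titles, where the mock2 numbering is that of the Su(Hw) knockdown. No label says that replicates came from separate cultures, so p-values measure the spread between libraries, which may be technical. The remaining 17 of 63 samples are input chromatin and are not analysed here, nor is Mod(mdg4)67.2 in knockdown cells.

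The number of peaks stood for depth, since read numbers are not given in the sources used here. NURF301 lists held 1 to 253 peaks after NURF301 knockdown, 4403 and 4574 after CP190 knockdown and 1819 to 2027 after Su(Hw) knockdown, against 4608 to 8226 in mock cells. Both short mock NURF301 lists, mock replicate 3 with 5449 peaks and mock2 replicate 2 with 4608, held few members. A NURF301 peak stood at 487 of the 985 members in mock replicate 3 and at 354 in mock2 replicate 2, against 981 to 985 in the other 4. Su(Hw) lists held 74 to 96 peaks after Su(Hw) knockdown and 3990 to 5358 in mock cells. CP190 lists held 1203 and 1280 peaks after CP190 knockdown and 5984 to 10553 in mock cells.

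In mock cells the members were weak NURF301 sites and strong CP190 and Mod(mdg4)67.2 sites, while for Su(Hw) the mock and mock2 series differed. Strength is given as the percentile of a peak's -log10 q within its own list, 100 being the strongest. The median member stood at percentile 36 ± 2.63 for NURF301, against 64.3 ± 6.11 at the 4364 NURF301 sites that had CP190 only (SD, n = 6 mock libraries). For CP190 the members stood at 79.6 ± 3.46, against 62 ± 9.27 at 973 Su(Hw) sites with CP190 and Mod(mdg4)67.2 and without NURF301. For Mod(mdg4)67.2 the members stood at 75.1 ± 4.79 and those sites without NURF301 at 36.3 ± 12.5 (n = 3). For Su(Hw) the direction turned between the series. In the 3 mock libraries members stood at 87, 86.3 and 86.8, against 62.9, 64.3 and 58.6 at sites without NURF301. In the 3 mock2 libraries members stood at 68, 57.2 and 45.9, against 74.6, 72.7 and 70.2, so they were above those sites in every mock library and below them in every mock2 library. Of the 500 strongest peaks in a list, 92.2% ± 3.36 were at members for Mod(mdg4)67.2, against 46.1% ± 10.3 of the whole list. For CP190 the shares were 17.4% ± 4.7 and 11.3% ± 2.78, and for NURF301 1.3% ± 0.713 and 11% ± 1.95. The Mod(mdg4)67.2 lists, with 1685 to 2813 peaks, were the shortest, so 500 peaks were a larger part of them. For Su(Hw) the share was 84.8%, 80% and 91% in the mock libraries and 25.6%, 17.8% and 11.2% in the mock2 libraries, so the series did not overlap. Over the whole Su(Hw) lists it was 21% to 24% in mock and 18.2% to 18.8% in mock2.

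The threshold on the number of lists cut through a gradient of NURF301 strength. Just inside it were 464 members with a NURF301 peak in 4 mock lists, whose median NURF301 percentile, with an absent peak taken as 0, was 16.7. Just outside were 149 sites with a NURF301 peak in 3 mock lists, at 7.91. A further 99 sites had one in 2 lists and 166 in 1 list. Members with a peak in 5 lists numbered 205, at percentile 28.8, and those in all 6 lists 316, at 54.9. The members also overlapped 48.1% of all Mod(mdg4)67.2 reference sites, 21.3% of those of Su(Hw) and 11.6% of those of CP190.

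The 4 proteins peaked at nearly the same base. The rule asked only for overlap, not for where summits fell. Between NURF301 and Su(Hw) summits of the same mock replicate the median distance was 21.4 ± 7.77 bp, and 84.5% ± 4.03 of members with both peaks had them within 100 bp (n = 6 library pairs). NURF301 and CP190 summits were 18.8 ± 4.79 bp apart, against 27.2 ± 4.17 bp at NURF301 sites with CP190 only. Su(Hw) and Mod(mdg4)67.2 summits were closest, at 11 bp in all 3 pairs of libraries, and 97.2% ± 0.403 lay within 100 bp. CP190 and Su(Hw) summits were 17.2 ± 1.33 bp apart at members, against 11.3 ± 1.63 bp at sites without NURF301. The ranges over libraries did not overlap in that last pair, 15 to 19 bp at members and 9 to 13 bp at sites without NURF301.

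**Figure D1:**
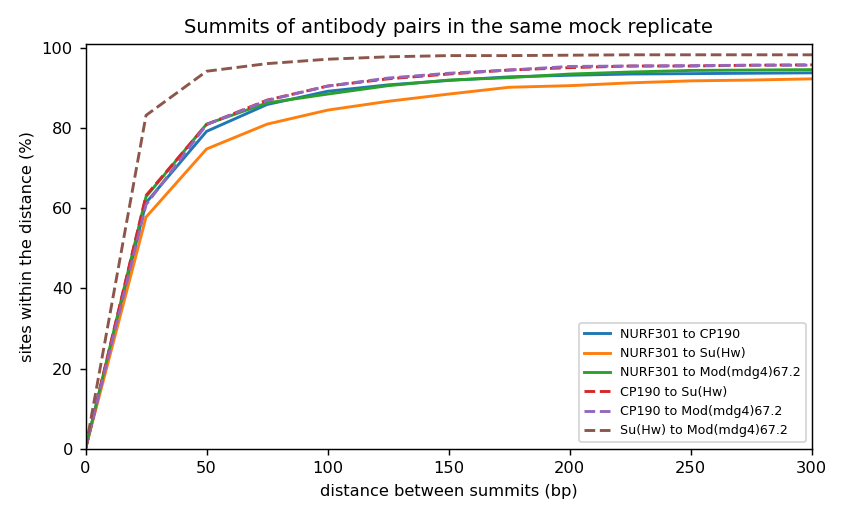
Cumulative share of 4-protein sites (y axis, %) whose summits of a pair of antibodies lie within a distance (x axis, bp), averaged over mock library pairs of the same replicate. The Su(Hw) to Mod(mdg4)67.2 curve lies above the others, with 97.2% of sites within 100 bp, and the NURF301 to Su(Hw) curve lies lowest, with 84.5%.

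The members stood more often at gene ends than other Su(Hw) sites and less often than other NURF301 sites. A site was counted at a gene boundary when an annotated end of a protein-coding gene lay within 500 bp of it. This held for 430 members (43.7%), against 88.3% of NURF301 sites with CP190 only and 22.9% of the sites without NURF301, a description over sites without a test. A further 327 members (33.2%) lay inside a gene and 228 (23.1%) between genes. Their median width was 508 bp, and the narrowest and widest spanned 314 and 2505 bp. The members were spread over the chromosomes, with 144 on 2L, 193 on 2R, 205 on 3L, 244 on 3R, 194 on X and 5 on chromosome 4. They made up 5.43% of NURF301 sites on chromosome 4 and 11.6% to 14.7% on the other arms. The median gap between neighbouring members was 67.7 kb, and 103 gaps were under 5 kb. The genes with most members were Flo2, which encodes a flotillin of membrane rafts, with 6, RYa-R, a neuropeptide receptor, with 5, and kirre, an adhesion protein of muscle founder cells, with 5.

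Of 13922 protein-coding genes, 882 (6.34%) lay within 500 bp of a member. Among 15 genes of insulator proteins 1 did, su(Hw) itself. Its member (3R, 14307824 to 14309359) also touches Polr2I, a subunit of RNA polymerase II. There Su(Hw) and CP190 peaks stood in all 3 NURF301 knockdown libraries, and neither protein had a peak in any Su(Hw) knockdown library. Of 12 loci linked to insulators in earlier work or in these data, 8 had a member: y, ct, sgg, ss, pros, fz3, tw and mGluR. Several of these were known from these data to carry such peaks, so the count is no independent evidence. The member at y, the pigment gene yellow (X, 361357 to 361925), had a Mod(mdg4)67.2 percentile of 95.6, and at ct, the homeobox gene cut (X, 7676837 to 7677320), Su(Hw) stood at 92.3. Both sites kept CP190 and Su(Hw) peaks in all 3 NURF301 knockdown libraries and CP190 in both CP190 knockdown libraries, and had none of the measured proteins in any Su(Hw) knockdown library.

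Of 8 genes of NURF and ISWI subunits 2 had a member, Acf, a partner of ISWI in the ACF remodeller, and tou. Of 8 Hox genes only Antp had a member, inside the gene (3R, 6912080 to 6913216). Its site kept both Su(Hw) and CP190 in all 3 Su(Hw) knockdown libraries. Of 18 Wnt pathway genes 4 had a member, the receptors fz2 and fz3, the kinase gene sgg and the feedback inhibitor nkd. The fz2 site (3L, 19139934 to 19140901) differed from the other 3: it had CP190 but no Su(Hw) peak in any NURF301 knockdown library, and CP190 in all 3 Su(Hw) knockdown libraries. Members also lay at 2 of 16 neuronal genes (Rbp9 and mGluR), 2 of 10 mesoderm and muscle genes (twi and how) and 2 of 17 cell cycle genes (fzr and E2f1). The site at fzr, an activator of the anaphase promoting complex, kept CP190 in all 3 Su(Hw) knockdown libraries and NURF301 in both CP190 knockdown libraries (X, 4666877 to 4667515).

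After NURF301 knockdown the NURF301 peaks at members were gone. The share of members with a NURF301 peak was 0.102%, 0% and 0% in the 3 knockdown libraries. It was 31.2% at the lowest, 93.5% at the median and 99.5% at the highest of the 6 mock libraries, each mock library being scored at sites chosen without it. The groups did not overlap. The means were 0.0338% ± 0.0586 after knockdown (n = 3) and 76.6% ± 31.1 in mock cells (n = 6), a difference of -76.6 points. In a two-sided exact permutation test over libraries p was 0.0238, the smallest that 84 splits allow, and 0.0317 adjusted over the 8 comparisons of this kind (Benjamini-Hochberg). No NURF301 peak was found at 984 members in any of the 3 knockdown libraries, against 96.5% of all NURF301 sites. The 3 knockdown lists held so few peaks that nearly every NURF301 site was empty in them. With lists that short the test was bound to reach its smallest p, so it says nothing particular about members.

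CP190 and Su(Hw) peaks stayed at most members when NURF301 was depleted. CP190 peaks stood at 94.6%, 72.1% and 86.8% of members in the NURF301 knockdown libraries, and at 99.8% (lowest), 100% (median) and 100% (highest) in the mock libraries. All 3 knockdown libraries lay below all 6 mock libraries. The sites were still chosen from the other mock libraries, which holds the mock shares near their top. A modest drop can therefore reach the smallest p, here and in the other CP190 and Su(Hw) comparisons below. The difference was -15.5 points, with 84.5% ± 11.4 after knockdown and 99.97% ± 0.0829 in mock cells (exact permutation p = 0.0238, adjusted 0.0317). Su(Hw) peaks stood at 94.4%, 77.4% and 94.6% of members after NURF301 knockdown, and at 98.1%, 99.7% and 100% as the lowest, median and highest of the mock libraries. This difference was -10.7 points, with 88.8% ± 9.91 after knockdown and 99.5% ± 0.722 in mock cells (exact permutation p = 0.0238, adjusted 0.0317). Replicate 2 weighed most in both, and without it the differences were -9.26 points for CP190 and -4.96 for Su(Hw). CP190 was missing from all 3 NURF301 knockdown libraries at 45 members (4.57%), against 35.6% of all CP190 sites, and present in all 3 at 696 (70.7%), against 40.6%. Su(Hw) was missing from all 3 at 46 members (4.67%), against 21.5% of all Su(Hw) sites, and present in all 3 at 762 (77.4%), against 54.8%. In lists of equal length both results lost their call. CP190 then stood at 81.8% ± 8.49 of members after knockdown and 91.7% ± 9.89 in mock cells, a difference of -9.92 points (exact permutation p = 0.119, adjusted 0.179). Su(Hw) stood at 85.2% ± 6.89 after knockdown and 78.3% ± 21.6 in mock cells, so the direction turned, with a difference of 6.96 points (exact permutation p = 0.714, adjusted 0.714). The members with Su(Hw) missing from all 3 libraries had weak Su(Hw) and Mod(mdg4)67.2 peaks in mock cells, with median percentiles of 28.6 and 27.8, against 72 and 74.1 over all members.

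CP190 knockdown left CP190 peaks at a large minority of members. In the 2 knockdown libraries 45.7% and 49.8% of members had a CP190 peak, against at least 99.8% in each mock library. The mean was 47.8% ± 2.94 after knockdown and 99.97% ± 0.0829 in mock cells, a difference of -52.2 points. With 2 libraries against 6 the exact permutation test cannot go below 0.0714, which was its p and its adjusted p. CP190 was in neither knockdown library at 476 members (48.3%), against 84.1% of all CP190 sites, and in both at 432 (43.9%), against 13.1%. Members held 38.5% and 39.5% of the CP190 peaks that remained, against 9.22% to 16.4% of the mock CP190 lists. When the mock lists were shortened to the same number of strongest peaks, the direction turned, with 46.2% ± 0.79 of members after knockdown and 33% ± 7.59 in mock cells (difference 13.2 points, exact permutation p = 0.0714, adjusted 0.143).

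NURF301 was found at fewer members after CP190 knockdown. The shares were 26.2% and 29.9% in the knockdown libraries, against 31.2%, 93.5% and 99.5% as lowest, median and highest of the mock libraries. The difference was -48.6 points, with 28.1% ± 2.66 after knockdown and 76.6% ± 31.1 in mock cells (exact permutation p = 0.0714, the smallest possible, adjusted 0.0714). NURF301 was in neither library at 656 members (66.6%), against 36.3% of all NURF301 sites, and in both at 224 (22.7%), against 50.6%. In lists of equal length the shares were 27.7% ± 2.08 after knockdown and 31.6% ± 3.97 in mock cells, a difference of -3.9 points (exact permutation p = 0.214, adjusted 0.257). The knockdown lists, with 4403 and 4574 peaks, were shorter than the shortest mock list, with 4608.

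After Su(Hw) knockdown each of the 3 measured proteins lacked a peak at most members. Su(Hw) peaks stood at 7.01%, 7.01% and 8.83% of members after knockdown, and at 98.1%, 99.7% and 100% as lowest, median and highest of the mock libraries. The difference was -91.9 points, with 7.61% ± 1.06 after knockdown and 99.5% ± 0.722 in mock cells (exact permutation p = 0.0238, adjusted 0.0317). The few peaks of these knockdown lists could reach only a small part of the members, and the rule held the mock shares near their top. The smallest p was thus fixed in advance and is no support for a loss particular to members. Su(Hw) was missing from all 3 libraries at 880 members (89.3%), against 97.5% of all Su(Hw) sites. What little Su(Hw) remained was at members. They held 69 of 74, 69 of 77 and 87 of 96 of the Su(Hw) peaks in the 3 knockdown lists, or 93.2%, 89.6% and 90.6%, against 18.2% to 24% of the mock lists. A Su(Hw) peak stood in every knockdown library at 44 members (4.47%), while it did so at 49 of all 4525 Su(Hw) sites (1.08%).

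CP190 peaks stood at 20%, 15.9% and 17.3% of members after Su(Hw) knockdown, against at least 99.8% in each mock library. The difference was -82.2 points, with 17.7% ± 2.07 after knockdown and 99.97% ± 0.0829 in mock cells (exact permutation p = 0.0238, adjusted 0.0317). CP190 was missing from all 3 libraries at 781 members (79.3%), against 48.7% of all CP190 sites. In lists of equal length 16.4% ± 0.508 of members had CP190 after knockdown and 88.4% ± 12.8 in mock cells, so with list length held fixed the difference was -72 points (exact permutation p = 0.0238, adjusted 0.0714). These knockdown lists held 3688 to 4227 CP190 peaks, of which 4.39% to 4.73% were at members, against 9.22% to 16.4% of the mock lists.

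NURF301 peaks were nearly gone from members after Su(Hw) knockdown as well. They stood at 0.914%, 1.22% and 1.62% of members, against 31.2%, 93.5% and 99.5% as lowest, median and highest in mock cells. The difference was -75.4 points, with 1.25% ± 0.357 after knockdown and 76.6% ± 31.1 in mock cells (exact permutation p = 0.0238, adjusted 0.0317). NURF301 was missing from all 3 libraries at 962 members (97.7%), against 62.3% of all NURF301 sites. In lists of equal length the shares were 1.08% ± 0.293 after knockdown and 5.64% ± 1.16 in mock cells, a difference of -4.56 points (exact permutation p = 0.0238, adjusted 0.0714).

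The knockdowns were also set against each other without mock libraries. CP190 stood at 84.5% of members after NURF301 knockdown and at 17.7% after Su(Hw) knockdown, 66.8 points apart (exact permutation p = 0.1, the smallest that 3 against 3 libraries allow). NURF301 stood at 28.1% of members after CP190 knockdown and at 1.25% after Su(Hw) knockdown, 26.8 points apart (exact permutation p = 0.2, the smallest that 2 against 3 allow). In neither pair did the libraries overlap. By the numbering in the titles the Su(Hw) knockdown goes with mock2 and the other knockdowns with mock. Knockdown and series therefore cannot be told apart in either pair.

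**Figure D2:**
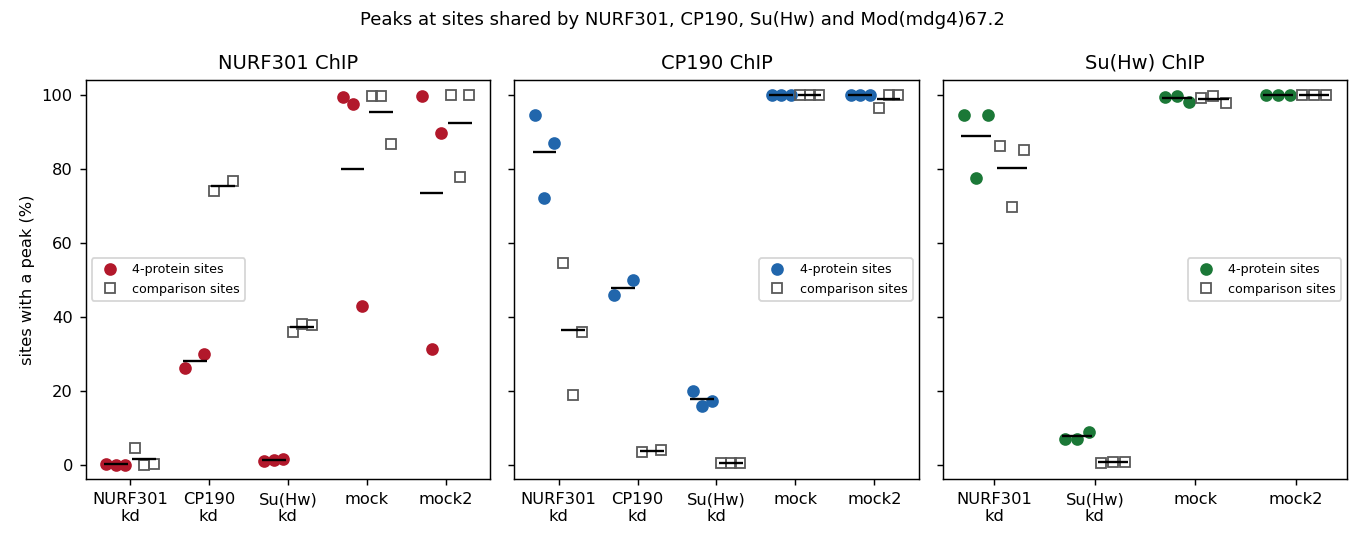
Share of sites with a peak (y axis, %) for each library of NURF301, CP190 and Su(Hw) ChIP; kd is knockdown, filled circles are 4-protein sites, open squares are comparison sites and bars are means. Comparison sites are NURF301 sites with CP190 only in the NURF301 panel and Su(Hw) sites with CP190 and Mod(mdg4)67.2 without NURF301 in the others. After Su(Hw) knockdown the 4-protein sites lie between 0.914% and 20% for all 3 antibodies.

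The members differed from the insulator sites without a NURF301 reference site in how many peaks they kept. A NURF301 peak in fewer than 4 mock lists was allowed there, so the contrast is not one of presence against absence. The 973 comparison sites carry Su(Hw), CP190 and Mod(mdg4)67.2 in mock cells. Both sets were chosen for CP190 and Su(Hw) peaks in mock lists, so the rule itself kept the mock gaps small. An uneven loss after knockdown could then easily reach the smallest p. The p-values here and in the next paragraph are therefore no independent support for a difference. After NURF301 knockdown CP190 stood at 94.6%, 72.1% and 86.8% of members, against 54.5%, 18.8% and 35.8% of the comparison sites in the same libraries. The gap was 48.2 ± 7.02 points after knockdown and 0.634 ± 1.4 points in mock cells, a difference of 47.5 points (exact permutation p = 0.0238, adjusted over 8 such differences 0.0476). For Su(Hw) after NURF301 knockdown the gap was 8.6 ± 1.04 points, against 0.143 ± 0.129 in mock cells, a difference of 8.46 (exact permutation p = 0.0238, adjusted 0.0476). After Su(Hw) knockdown CP190 remained at 0.514%, 0.411% and 0.411% of comparison sites and Su(Hw) at 0.411%, 0.719% and 0.719%. The gaps there were 17.3 ± 2.02 points for CP190 and 7 ± 0.978 for Su(Hw), which exceeded those in mock cells by 16.7 and 6.85 points (exact permutation p = 0.0238 and adjusted 0.0476 for both). After CP190 knockdown CP190 stood at 3.29% and 3.91% of comparison sites, a gap of 44.2 ± 2.51 points and 43.5 above that in mock cells (exact permutation p = 0.0714, adjusted 0.0952).

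The members and those comparison sites also differed in strength and width in mock cells, the comparison sites being Su(Hw) intervals with a median width of 929 bp. With the comparison sites weighted to the members' distribution over 5 classes of strength, an alternative chosen after seeing the data, the differences after NURF301 knockdown were 30.5 points for CP190 and 2.83 for Su(Hw) (exact permutation p = 0.0238, adjusted 0.0381 for both). After Su(Hw) knockdown they were 14.7 and 7.17 points (adjusted 0.0381 for both). In lists of equal length the difference for CP190 after NURF301 knockdown was 28.6 points and lost its call (exact permutation p = 0.0238, adjusted 0.0714), with a mean gap of 52.1 points after knockdown and 23.5 points in mock cells. That for Su(Hw) was 16.8 points and lost its call too (exact permutation p = 0.262, adjusted 0.314). The difference for CP190 after Su(Hw) knockdown was -12.3 points (exact permutation p = 0.167, adjusted 0.25), with a gap of 16.1 ± 0.511 points after knockdown and 28.4 ± 11.5 in mock cells. For Su(Hw) after NURF301 knockdown, sites present in every mock library gave a difference of -4.05 points (exact permutation p = 0.667, adjusted 0.714).

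NURF301 peaks stood at a smaller share of members than of NURF301 sites with CP190 only, in every mock library and after the CP190 and Su(Hw) knockdowns. After CP190 knockdown NURF301 stood at 26.2% and 29.9% of members and at 74% and 76.7% of these 4364 sites. After Su(Hw) knockdown it stood at 0.914%, 1.22% and 1.62% of members and at 35.9%, 38% and 37.7% of these sites. After NURF301 knockdown both shares were near 0, and the gap of -1.55 ± 2.56 points differed from that in mock cells by 15.7 points (exact permutation p = 0.262, adjusted 0.262). In mock cells the gap ran from -46.4 to -0.299 points, the 2 widest being in the libraries with short lists. The gap of -47.3 ± 0.777 points after CP190 knockdown differed from that of -17.2 ± 21.9 in mock cells by -30.1 points, and did not pass the test (exact permutation p = 0.0714, adjusted 0.0952). The gap of -36 ± 0.897 points after Su(Hw) knockdown differed by -18.7 points, lay within the range of the mock libraries and did not pass either (exact permutation p = 0.238, adjusted 0.262). With comparison sites weighted to the members' strength these differences were -9.4 points after CP190 knockdown (adjusted 0.0816) and -9.21 after Su(Hw) knockdown (exact permutation p = 0.0238, adjusted 0.0381).

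The combinations of proteins left at each member differed between the knockdowns. A protein was counted as kept when it had a peak in at least 2 libraries of a knockdown. Combinations, here and in the groups of named sites below, were counted at members only. Whether they are particular to members was not tested. After NURF301 knockdown 826 members (83.9%) kept CP190 and Su(Hw), 97 (9.85%) kept Su(Hw) without CP190, 35 (3.55%) kept CP190 without Su(Hw) and 27 (2.74%) kept neither. After CP190 knockdown 187 members (19%) kept NURF301 and CP190, 245 (24.9%) kept CP190 without NURF301, 37 (3.76%) kept NURF301 without CP190 and 516 (52.4%) kept neither. After Su(Hw) knockdown 781 members (79.3%) kept none of the 3 measured proteins. A further 118 (12%) kept CP190 alone, 53 (5.38%) CP190 and Su(Hw), 23 (2.34%) Su(Hw) alone, 8 (0.812%) NURF301 and CP190, and 2 (0.203%) NURF301 alone. No member kept all 3 proteins after Su(Hw) knockdown.

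**Figure D3:**
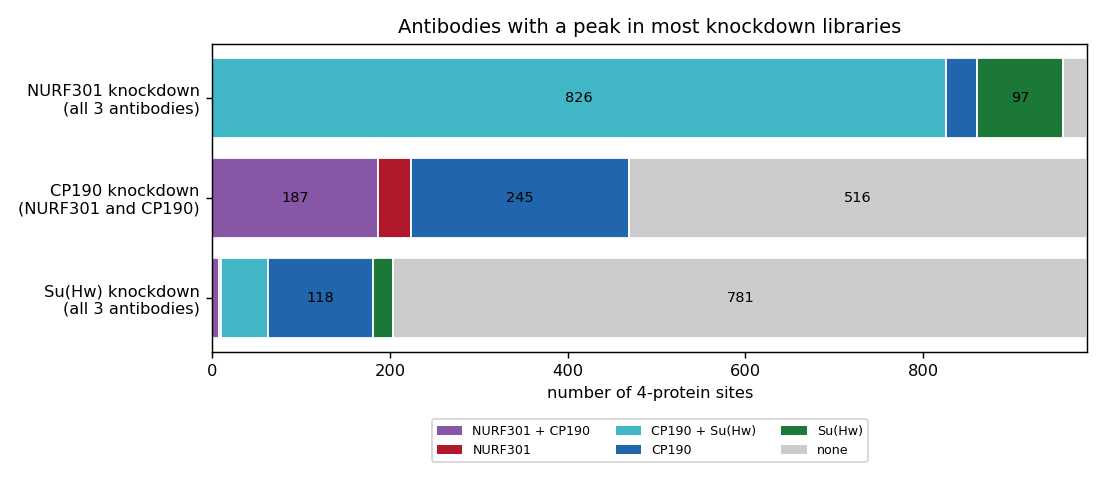
Number of 4-protein sites (x axis) by which of the antibodies measured in a knockdown had a peak in at least 2 of its libraries; each bar holds all 985 sites. Both CP190 and Su(Hw) stayed at 826 sites after NURF301 knockdown, and none stayed at 781 sites after Su(Hw) knockdown.

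The share of members with a peak after knockdown varied with NURF301 strength in mock cells. The members were put into 4 classes of 246 or 247 by that strength, from weakest to strongest. After CP190 knockdown a NURF301 peak remained at 1.42%, 9.15%, 29.3% and 72.6% of the members in these classes. CP190 peaks remained at 22.7%, 36.2%, 58.3% and 74% after CP190 knockdown, and at 2.02%, 5.01%, 13% and 50.9% after Su(Hw) knockdown. Each of these series went up from class to class. CP190 after NURF301 knockdown averaged 74.4%, 81.8%, 90% and 91.9%. In its 3 libraries the share was 96.7%, 86.2% and 92.7% in the strongest class and 89.5%, 54.7% and 78.9% in the weakest, so each library was higher in the strongest class. Su(Hw) after NURF301 knockdown went the other way, with 86.2%, 55.3% and 87% in the strongest class and 96.8%, 82.6% and 96.4% in the weakest. The classes were made from mock NURF301 lists, so the values are a description without a test.

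**Figure D4:**
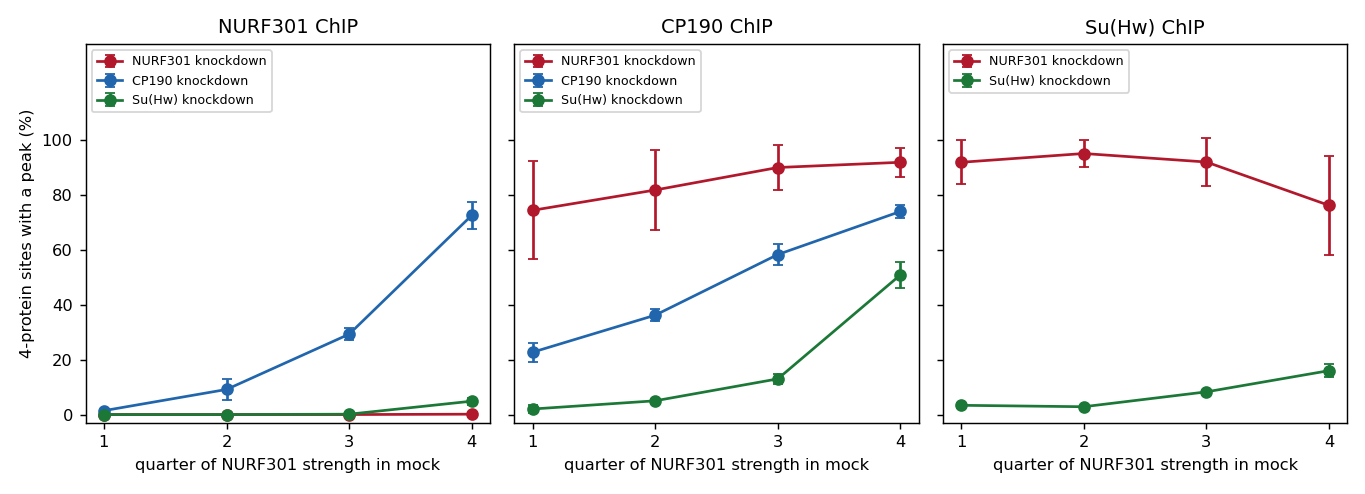
Share of 4-protein sites with a peak in knockdown libraries (y axis, %) by class of NURF301 strength in mock cells (x axis, 1 weakest to 4 strongest), for NURF301, CP190 and Su(Hw) ChIP. Points are means and bars are SD over 2 or 3 libraries. NURF301 after CP190 knockdown lies at 1.42% in class 1 and 72.6% in class 4.

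Strength of the other proteins gave other orders. By Su(Hw) strength, a mean over both mock series, from weakest to strongest class, CP190 remained at 36.4%, 13.8%, 11.9% and 8.67% of members after Su(Hw) knockdown, so it was kept most where Su(Hw) had been weakest. Su(Hw) after NURF301 knockdown stood at 70.9%, 93.1%, 94.6% and 96.7% over the same classes. By Mod(mdg4)67.2 strength, CP190 after CP190 knockdown stood at 19.2%, 42.5%, 59.3% and 70.1%. By CP190's own strength it stood at 47.6%, 55.3%, 49.4% and 38.8%, with the lowest share where CP190 had been strongest. By place, CP190 after Su(Hw) knockdown remained at 26.4% ± 3.17 of the members at gene boundaries, 12.1% ± 1.68 of those inside genes and 9.5% ± 0.67 of those between genes.

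At 123 members the median distance between NURF301 and Su(Hw) summits over mock replicates was above 100 bp, and at the other 862 it was at most 100 bp. This split was made after the data were seen and carries no test. After Su(Hw) knockdown CP190 stood at 53.9% ± 3.38 of the 123 members with summits apart and at 12.6% ± 1.98 of the 862 others. NURF301 stood at 8.13% ± 4.07 of the 123 and 0.271% ± 0.177 of the 862 in the same knockdown, and at 52% ± 5.75 of the 123 and 24.7% ± 2.21 of the 862 after CP190 knockdown. Su(Hw) after Su(Hw) knockdown stood at 7.32%, 5.69% and 8.13% of the 123 and at 6.96%, 7.19% and 8.93% of the 862, with no common direction over the 3 libraries. Members with summits apart were wider, with a median of 885 bp against 500 bp, and stood at gene boundaries in 60.2% of cases against 41.3%. A peak anywhere in the interval counted, so a wider site could hold a separate peak away from the Su(Hw) summit. These members also had higher NURF301 percentiles, 42.2 against 24.7. The part of width, strength and place in these shares was not tested.

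The 141 members with CP190 in all 3 Su(Hw) knockdown libraries (14.3%, against 39.4% of all CP190 sites) and the 781 with none were unlike in mock cells. Their median NURF301 percentiles were 58.2 and 21.9, their widths 683 and 492 bp, and 63.1% and 37.9% of them stood at gene boundaries. At 100 of them, a group formed after seeing the data, CP190 remained in all 3 libraries and Su(Hw) in none. The strongest of these were near L, which encodes the eye growth regulator Lobe, near CG12507 and near Jhbp1. The 224 members that kept NURF301 in both CP190 knockdown libraries had a median NURF301 percentile of 55, against 20 at the 656 that kept it in neither. In Mod(mdg4)67.2 they stood at 81.2, against 70.5.

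Individual sites show these states. The member at Ugt301D1, a gene for a UDP-glycosyltransferase (2L, 18513299 to 18513837), had mock percentiles of 92.3 for CP190, 87.4 for Su(Hw), 94.8 for Mod(mdg4)67.2 and 56.3 for NURF301, each a mean over mock lists. CP190 and Su(Hw) had peaks there in all 3 NURF301 knockdown libraries. None of the measured proteins had a peak there in any CP190 or Su(Hw) knockdown library, Su(Hw) not being measured after CP190 knockdown. All summits at this site lay within 38 bp of the median Su(Hw) summit of the mock libraries. It is the strongest of 654 members without NURF301 in any CP190 or Su(Hw) knockdown library. The next of these lay near CG44476, inside heph, a polypyrimidine tract binding protein gene, near sm, and at Cbp80, a subunit of the nuclear cap-binding complex.

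The member inside klar (3L, 505590 to 506500), whose protein links organelles to microtubule motors, was among the 44 with Su(Hw) in all 3 Su(Hw) knockdown libraries. The Su(Hw) summits of those libraries lay 25 to 51 bp from the median mock Su(Hw) summit. NURF301 and CP190 summits were elsewhere in the same site. They lay 270 to 374 bp and 196 to 344 bp away in mock libraries, and the CP190 summits stayed 302 to 349 bp away after Su(Hw) knockdown. Mod(mdg4)67.2 summits were with Su(Hw), 7 to 14 bp away, and so were the GFP summits at 7 to 20 bp. Others of the 44 lay inside sick, at nompC, a mechanosensory channel gene, near CG15282 and at phyl, a gene of photoreceptor fate. The 44 had a median NURF301 percentile of 48.5, against 25.6 over all members, and 23 of them (52.3%) stood at gene boundaries.

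**Figure D5:**
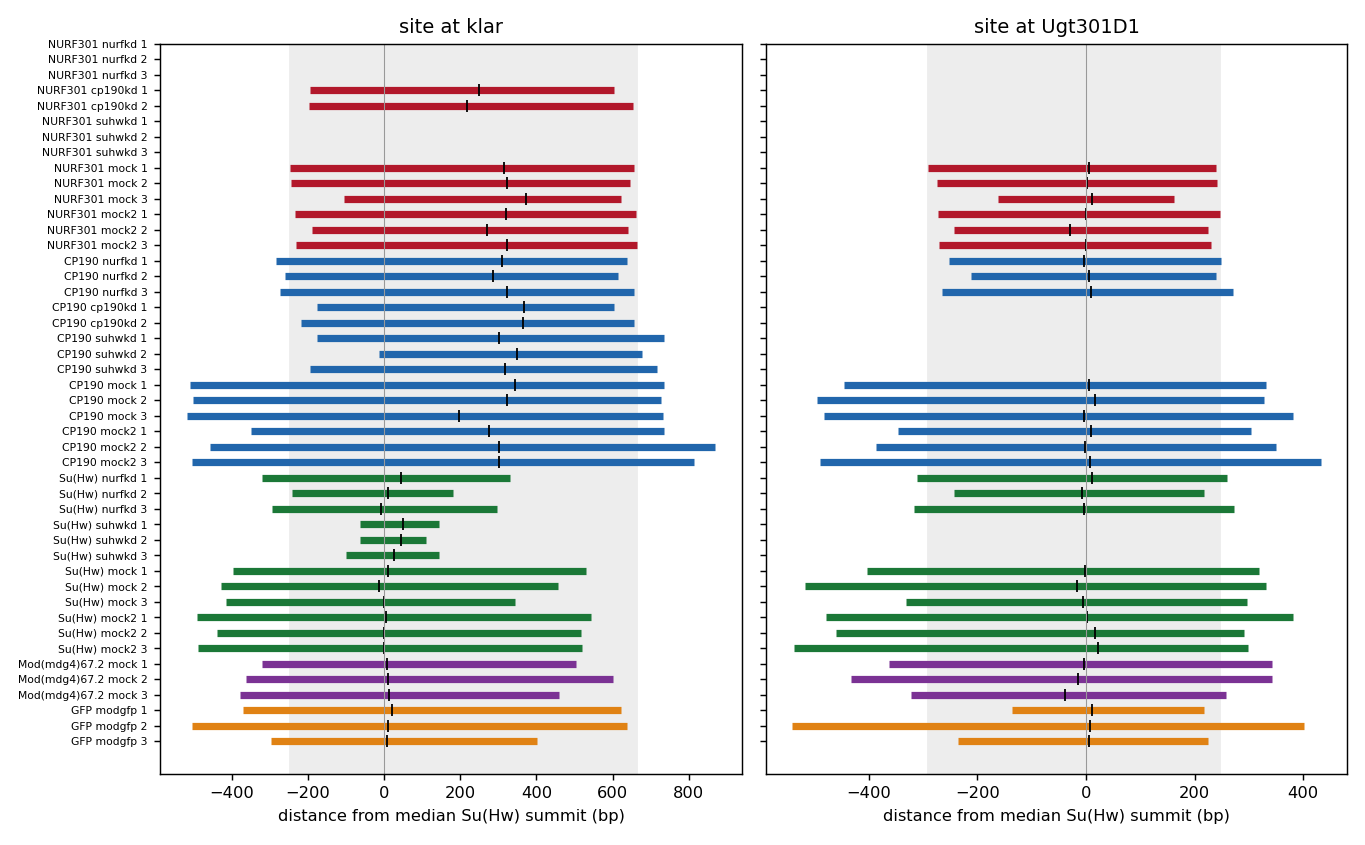
Strongest peak in each library (horizontal bars, black ticks are summits) at the members in klar and at Ugt301D1, against distance from the median mock Su(Hw) summit (x axis, bp); rows are libraries, grouped by antibody, and grey marks the member. At klar the mock NURF301 summits lie 270 to 374 bp from Su(Hw), and at Ugt301D1 the rows of the CP190 and Su(Hw) knockdowns are empty.

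NURF301 rarely stayed. It stood in every Su(Hw) knockdown library at 4 members (0.406%), against 13.4% of all NURF301 sites, and these 4 also had it in both CP190 knockdown libraries: CG14621, the pair AGO1 and Rpn13, Cyp313b1 and near CCKLR-17D1. AGO1 is the Argonaute protein of microRNA silencing and Rpn13 a ubiquitin receptor of the proteasome. The CG14621 site (X, 22443015 to 22445020) had mock percentiles of 87.8 for NURF301 and 96.5 for Mod(mdg4)67.2. Its NURF301 summits lay 860 to 1508 bp from the median mock Su(Hw) summit in mock libraries. After Su(Hw) knockdown they lay 888 to 996 bp away. The site at AGO1 and Rpn13 had NURF301 at 94.5, Su(Hw) at 69.4 and Mod(mdg4)67.2 at 9.9, so it was strong for the remodeller and weak for Mod(mdg4)67.2. Its NURF301 summits lay 1159 to 1186 bp from the median mock Su(Hw) summit in mock libraries. After Su(Hw) knockdown they lay 1100 to 1171 bp away. The site near CCKLR-17D1 (X, 18703790 to 18704361), a neuropeptide receptor gene, had NURF301 at 90.3 and Mod(mdg4)67.2 at 10.3. It was weak for Su(Hw) too, at 6.63, and its mock NURF301 summits lay only 2 to 9 bp from the median mock Su(Hw) summit. The sites at AGO1 and Rpn13 and near CCKLR-17D1 were also the only members with NURF301 and CP190 and without Su(Hw) in every Su(Hw) knockdown library.

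Both CP190 and Su(Hw) stood in every NURF301 knockdown library at 581 members, a combination not counted over other sites. The strongest were at CG42711 and Vajk2, at CG4459 and Hs6st, a heparan sulfate sulfotransferase gene (3R, 19928906 to 19929435), at CG31810, at CG14621 and near RunxA, a gene of the Runt family of transcription factors. At 14 members neither protein had a peak in any NURF301 knockdown library, also without a count over other sites. The strongest of these lay inside Trhn, the neuronal tryptophan hydroxylase gene (3L, 1191506 to 1191990), and others near CG4213, CG17571 and Mur11Da and at CG9920. Trhn had a CP190 percentile of 85.5 and a Mod(mdg4)67.2 percentile of 95.1 in mock cells. CP190 stood in both CP190 knockdown libraries at 432 members, the strongest being at CG14621, inside Cpr49Ae, a cuticle protein gene, near L, near RunxA and at smash. Of the 5 members on chromosome 4 the strongest lay at sv, the fly Pax2 gene, and Cals (1112708 to 1113894).

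The GFP libraries gave a measure of Mod(mdg4) that the rule did not use. A GFP peak stood at 941, 979 and 714 of the 985 members, or 95.5%, 99.4% and 72.5%. Of the 973 sites without NURF301, 78.2%, 96% and 21.4% had one in the same libraries. Over all Mod(mdg4)67.2 reference sites the shares were 86.5%, 97.3% and 45.6%. The sites without NURF301 also had weaker Mod(mdg4)67.2 peaks in mock cells, at percentile 36.3 against 75.1 at members. The part of strength in the GFP shares was not tested. The means were 89.1% ± 14.5 at members and 65.2% ± 39 at sites without NURF301 (n = 3). Members were higher in 3 of 3 libraries, by 17.3, 3.4 and 51.1 points, and the exact sign-flip permutation test gave p = 0.25, the smallest it can give. All 3 GFP lists held 714 members, and 6 members had no GFP peak in any. The GFP lists reach down to a -log10 q of 1.34, against 6 or more in the other lists, so the authors' cutoffs were not the same.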

How the data were processed

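Chromatin immunoprecipitation and sequencing (ChIP-seq) peak lists of 46 libraries were used. Tools in the submitters' processing notes are MACS2 2.2.7.1, Picard 2.25.2, SAMtools 1.12 and Bowtie2 2.4.2. Settings, control library and genome build are not given in the sources used here, and peaks were called per library. The deposited lists hold the authors' score, the ratio (fold enrichment), the -log10 p-value and -log10 q-value, and the summit position of each peak. Here -log10 q ranked peaks within a list and summits gave distances, while score, ratio and -log10 p entered no result. Peaks on 2L, 2R, 3L, 3R, 4 and X were kept. Chromosome names and extents are those of Release 6. Gene names and neighbours came from RefSeq, and printed coordinates are those of the peaks, counted from 1. DNA sequence was not analysed here.

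The members and gene lists were chosen with earlier results of these data known. A member had an antibody's peak when at least 1 bp overlapped. Knockdown libraries were scored at the 985 members, and each mock library at members rebuilt without it, with at least 3 of the 5 other lists. The sites were thus still chosen from mock lists, which favours mock over knockdown libraries. A p-value at its smallest does not by itself show an effect of the knockdown. An exact permutation test, two-sided with p as 2 times the smaller tail, compared libraries over their 84 or 28 splits. Benjamini-Hochberg adjustment was used, and the test was tested on simulated data. Fisher's exact test of presence per site was also run, but its calls at members are not given, because it uses the mock lists that chose the members and could reach 0.05 nearly only where knockdown peaks were missing. Strength classes, summit splits and the sites with retained Su(Hw) or CP190 were chosen after the data were seen. Named sites were the strongest, by the mean of the 4 antibodies' mock percentiles: 8 among all members, up to 5 in each retention group, the top site on chromosome 4 and sites at listed genes. Alternatives were the matching mock series, sites in all mock lists, a -log10 q of at least 20, summits extended by 150 bp, equal list lengths, mock libraries scored at sites they helped to choose, a replicate block, leaving out each library, and weighting by strength. Python 3.11.15, numpy 2.4.6, pandas 2.3.3, scipy 1.17.1 and matplotlib 3.10.9 were used. The number of peaks limits the precision of each list, since read depth is unknown.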

Additional observations from a re-analysis of the deposited data

Results flagged for a closer look

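In 3 results 1 of 6 mock libraries stood apart from the others by Dixon's criterion, which chance meets in about 1 of 20 groups. CP190 stood at 99.8% of members in mock2 replicate 1, against 100% in the other 5 mock libraries. In the same library the gap between members and sites without NURF301 was 3.5 points for CP190, against at most 0.206 in the others, and its CP190 list, with 5984 peaks, was the shortest of the 6. Su(Hw) stood at 98.1% of members in mock replicate 3, against 99.4% to 100% in the others, and its list, with 3990 peaks, was the shortest of the 6 for Su(Hw).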

How the results depend on the processing

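Summits extended by 150 bp and mock libraries scored at sites they had helped to choose kept the direction and call of all 16 results. With the matching mock series alone, 3 libraries against 3 cannot go below an exact p of 0.1, so no call could pass. The differences were then -79.8, -72.2, -15.5, -82.2, -10.2 and -92.3 points for peaks at members (NURF301 after NURF301 and Su(Hw) knockdown, CP190 after both, Su(Hw) after both). For members minus comparison sites they were 48.1 and 16.1 for CP190 and 8.42 and 6.89 for Su(Hw) after these knockdowns. Replicates shared only a number, since deviations of same-numbered libraries correlated between -0.15 and 0.26 and in no comparison above 0.1 in every pair. The replicate block gave the same 10 differences, with an exact sign-flip p of 0.25 as the smallest possible.

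With lists of equal length the differences at members were -4.56 for NURF301 after Su(Hw) knockdown, -9.92 for CP190 after NURF301 knockdown and -72 after Su(Hw) knockdown, none past the adjusted threshold. Those of CP190 after CP190 knockdown and of Su(Hw) after NURF301 knockdown turned to 13.2 and 6.96 points. Against comparison sites they were 28.6 for CP190 and 16.8 for Su(Hw) after NURF301 knockdown, no longer past it, and -12.3 for CP190 after Su(Hw) knockdown, a turned direction. Lists of NURF301 after its own knockdown and of Su(Hw) after its own were under 500 peaks and were not cut. With only peaks whose -log10 q reached 20, the differences against comparison sites were 17.8 for NURF301 after NURF301 knockdown, now past the threshold, 6.71 for NURF301 after Su(Hw) knockdown, turned, and 6.8 for Su(Hw) after NURF301 knockdown, no longer past it. Sites in every mock list gave -41.6 for NURF301 after Su(Hw) knockdown, now past it, and -4.05 for Su(Hw) after NURF301 knockdown, turned. Weighting by strength gave -9.21 for NURF301 after Su(Hw) knockdown, now past it. Apart from the fewer libraries or peaks that these settings use by construction, the cause was not tested.

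Leaving out 1 library gave, at members, -85.7 to -72 for NURF301 after NURF301 knockdown, -57.7 to -44 after CP190 knockdown and -84.5 to -70.8 after Su(Hw) knockdown. CP190 gave -20.5 to -9.26, -54.3 to -50.1 and -83.4 to -81.3 in the same order, and Su(Hw) gave -13.6 to -4.96 after NURF301 and -92.5 to -91.6 after Su(Hw) knockdown. Against comparison sites the ranges were 9.84 to 19.1, -35.9 to -26.7 and -24.6 to -15.4 for NURF301, 45 to 51.5, 41.8 to 45.3 and 15.6 to 17.5 for CP190, and 7.89 to 8.92 and 6.3 to 7.21 for Su(Hw). No direction turned. Each of the 6 calls at members was lost when a knockdown library was left out, and each of the 4 calls against comparison sites when any library was, since the splits that remain allow no smaller p.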
